A study of Mus musculus with 6 samples.

Results

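The 58 genes described here build and run the secretory pathway of the endoplasmic reticulum (ER) and its stress response. They were taken by symbol from a list of 58 names in 7 subgroups, and all 58 were found among the 30733 gene symbols of the deposited tables. The study compared cells labelled hematopoietic stem cells from the bone marrow of wild-type (WT) mice, sorted as high (MHCII-hi) or low (MHCII-lo) for MHC class II, the surface complex that presents peptides to helper T cells. Every mouse had received 5 Gy of total body irradiation, so neither group is an unirradiated control. Each group had 3 stranded mRNA libraries. Neither the gates, nor the interval after irradiation, nor the age of the mice is given in the labels. They also do not say that replicates came from separate mice, so p-values measure the spread among these libraries only, and that spread may be technical.

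Proteins bound for secretion or for membranes are recognised by the signal recognition particle as they leave the ribosome, threaded through the Sec61 channel, trimmed by signal peptidase, glycosylated, folded by chaperones and oxidoreductases, and packed into COPII-coated vesicles. When unfolded protein accumulates, the membrane sensors IRE1 (gene Ern1), ATF6 and PERK (gene Eif2ak3) start the unfolded protein response, which raises chaperones, degradation factors and, under PERK, the transcription factors ATF4 and CHOP. Blood stem cells are known for low protein synthesis and for sensitivity to this stress, whereas antibody-secreting plasma cells enlarge the whole pathway under the factor XBP1.

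Levels are given as FPKM, that is, sequenced fragments divided by transcript length and by library depth, with an estimated 2.04e+07 to 3.22e+07 fragments behind each library. Markers of several cell types were detected. For the marker counts below, 25.5% of all tested genes were higher in MHCII-hi and 33.1% lower (limma, adjusted p under 0.05). Summed FPKM of 12 plasma cell markers lay between 1451 and 1469 in MHCII-hi and between 19.8 and 23.2 in MHCII-lo, and 11 of the 12 were higher in MHCII-hi by limma. Most of that sum is Jchain, at 1342 FPKM against 14.2. Immunoglobulin genes took 23.4 to 23.7% of summed FPKM in MHCII-hi and 0.493 to 0.502% in MHCII-lo. With FPKM weighted by exon length, which estimates their share of fragments, they took 5.53 to 5.57% in MHCII-hi and 0.104 to 0.106% in MHCII-lo. The summed FPKM of 15 neutrophil markers was 19587 to 19865 in MHCII-hi, against 43323 to 43895 for MHCII-lo. All 15 were lower in MHCII-hi, though Mpo was not called (-0.04) with libraries scaled to summed FPKM without immunoglobulin genes. All 12 eosinophil and basophil markers were higher in MHCII-hi, at 8066 to 8232 against 3076 to 3127. All 5 tested B cell markers were also higher, at a summed 62.4 to 64.8 against 8.23 to 9.87 over the whole list of 14, with Cr2 at 0 in all 3 MHCII-lo libraries. Of 10 tested T and NK cell markers 9 were higher. The list of 12 summed to 212 to 222 against 166 to 174, and to 67.8 to 71.4 against 18.2 to 19.7 without Nkg7, the tested marker that was not called. Stem cell markers were higher in 6 and lower in 1 of 8 tested. Over the list of 14 they summed to 75.6 to 80.9 against 33.2 to 33.9. Kit, 1 of the 6, was not called (0.05) with libraries scaled to summed FPKM. However, Mecom, Fgd5, Procr and Slamf1 reached at most 0.72 FPKM in any library. The part of these cells in the results was not tested. In bulk RNA, fewer cells of a type and less RNA per cell cannot be told apart.

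Most of the secretory pathway was lower in MHCII-hi cells, while a few genes, led by Herpud1 and Txndc5, were higher. Of the 58 genes, 45 fell and 7 rose in MHCII-hi, and 6 did not pass the test (limma on log2(FPKM + 1), adjusted p under 0.05 over 12110 tested genes). Among all tested genes 33.1% fell and 25.5% rose, and among the 7327 genes that averaged 5 FPKM or more, where all but a few of the 58 lie, 44.9% fell and 24.5% rose. The median change of the 58 was -0.32 on the log2(FPKM + 1) scale, against -0.04 for all tested genes, and 47 of the 58 lay below the median of all tested genes. The summed level of the 58 was 3284 ± 9.95 FPKM in MHCII-hi, against 4085 ± 6.65 for MHCII-lo (SD, n = 3 each). Groups did not overlap for 52 of the 58: all MHCII-lo libraries were above for 45 (36.8% of all tested genes) and all MHCII-hi libraries for 7 (29.0%).

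FPKM is relative to the whole library, so the immunoglobulin transcripts bear on every small decrease. With libraries scaled to their summed FPKM without immunoglobulin genes (the immunoglobulin-free scaling), 33 of the 58 fell (17.6% of all tested genes) and 11 rose (40.5%). The median of the 58 was then -0.16, and the median of all tested genes was 0.11. The 12 genes that lost their call were Srp68, Srp72, Sec62, Ssr4, Spcs1, Rpn2, Krtcap2, Pdia4, Hspa5, Creld2, Sec31a and Sar1a. Scaling to estimated fragments without immunoglobulin genes gave 41 lower (24.8% of all tested genes) and 8 higher (32.3%). Of the 12 genes, only Srp68, Pdia4, Sec31a and Sar1a were also not called with estimated fragments. With libraries scaled to their whole summed FPKM, 49 fell (52.2%) and 5 rose (15.3%). Quantile normalization enlarged the decreases of the most abundant genes, for example from -0.40 to -0.84 for P4hb, from -0.38 to -0.80 for Calr and from -0.49 to -0.89 for Pdia3. The gap between the median of the 58 and that of all tested genes was -0.31 to -0.27 over 6 scalings. Apart from quantile normalization, a scaling factor moves all genes of a library nearly alike. The steadiness of the gap is therefore largely fixed by construction. Among genes averaging 5 FPKM or more, the gap was -0.22. Under all 6 scalings, 33 genes were called lower (17.6% of tested genes) and 5 were called higher (14.6%): Herpud1, Txndc5, Ddit3, Sec24a and Dnajb9.

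**Figure D1:**
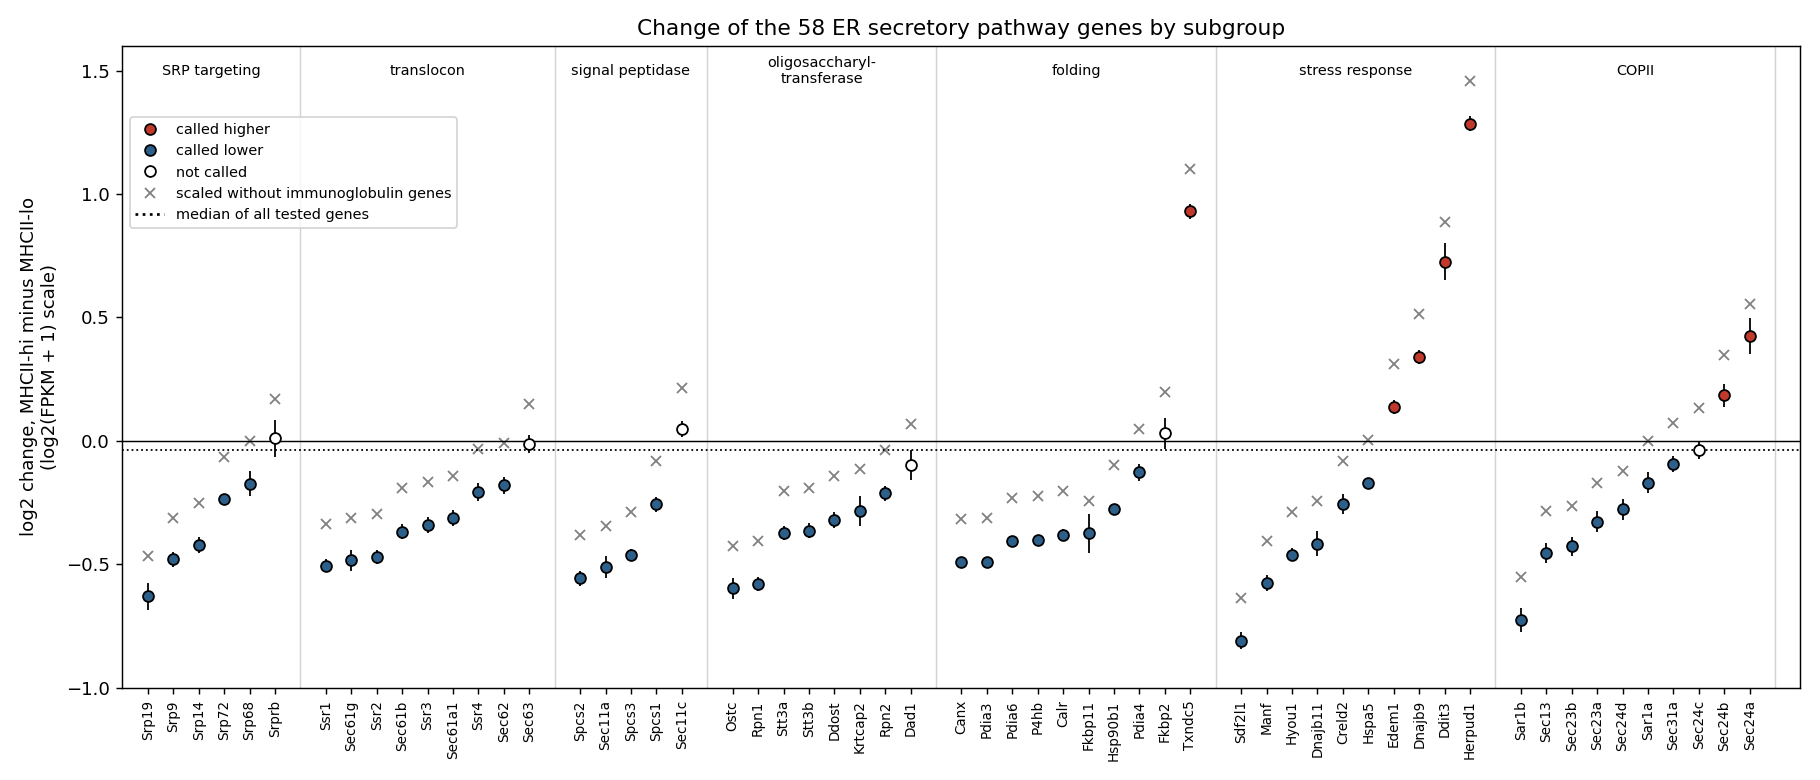
Log2 change (MHCII-hi minus MHCII-lo, log2(FPKM + 1) scale) of each of the 58 genes, grouped into 7 subgroups, with circles filled by call, bars of 1 SE and crosses for values scaled without immunoglobulin genes; the dotted line is the median of all tested genes. Herpud1 at 1.28 and Txndc5 at 0.93 stand highest and Sdf2l1 at -0.81 lowest.

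The subgroups differed in how uniform they were. For the counts by subgroup given from here on, 33.1% of all tested genes fell and 25.5% rose. Under the immunoglobulin-free scaling those shares were 17.6% and 40.5%. Of the 28 genes that target, translocate, trim and glycosylate nascent proteins, none rose, except that Sec63 and Sec11c did under the immunoglobulin-free scaling. The stress-response subgroup held 4 of the 7 genes that rose and COPII held 2. Median changes ran from -0.46 for signal peptidase to -0.21 for the stress response, with COPII at -0.22, the signal recognition particle at -0.33, the translocon and oligosaccharyltransferase each at -0.34, and folding at -0.38. Folding enzymes carried the most RNA, with a summed 1470 ± 7.21 FPKM in MHCII-hi against 1880 ± 6.54 for MHCII-lo (SD, n = 3 each).

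**Figure D2:**
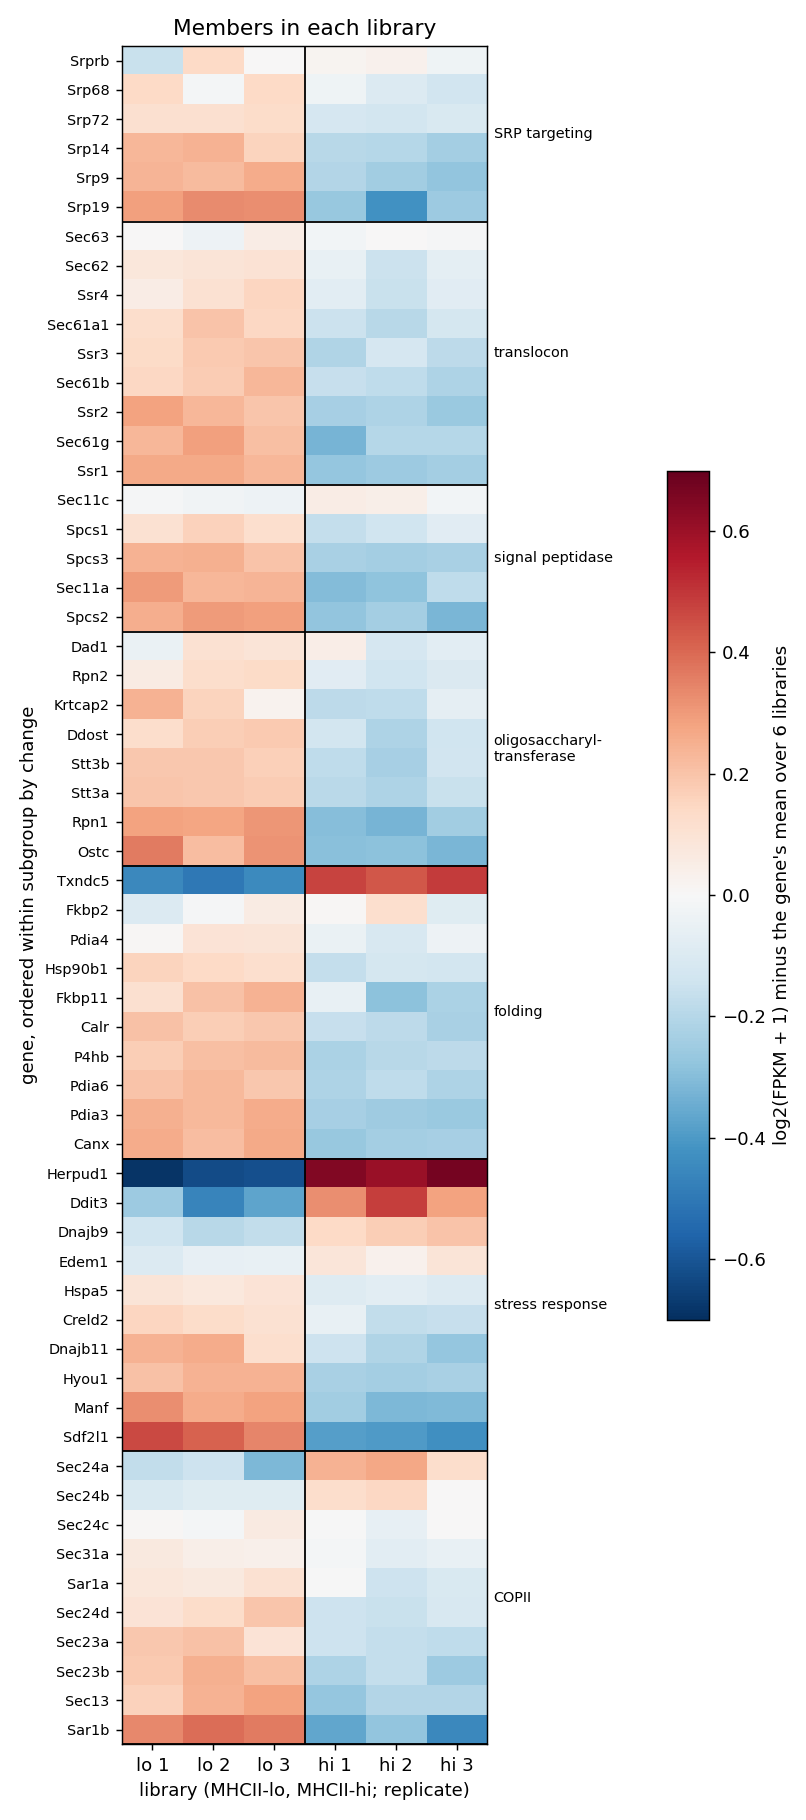
Heat map of the 58 genes (rows) in the 6 libraries (columns), coloured by log2(FPKM + 1) minus the mean of the gene over the 6 libraries. The 3 libraries of a group look alike, and the rows with the strongest red in MHCII-hi are Herpud1, Txndc5 and Ddit3.

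Signal recognition particle genes fell in 5 of 6 cases (3 under the immunoglobulin-free scaling), and the receptor subunit did not pass the test. Srp19, which helps assemble the particle on its RNA, fell most, with 8.54, 7.54 and 8.62 FPKM in MHCII-hi against 13.0, 13.4 and 13.4 in MHCII-lo. All MHCII-lo libraries lay above all MHCII-hi libraries, and the change was -0.63 (SE 0.05, limma adjusted p = 8.74e-05). Srp14, which with Srp9 holds the part of the particle that slows translation, was the most abundant, at 39.4, 39.2 and 38.2 FPKM against 53.4, 53.8 and 50.5, a change of -0.42. Srp9 changed by -0.48 and Srp72, which binds the particle's RNA with Srp68, by -0.24 (-0.07 and not called under the immunoglobulin-free scaling). Srp68 stood at 36.9, 35.2 and 34.3 against 41.6, 37.3 and 41.7, a change of -0.17 (limma adjusted p = 0.0237). It was -0.0014 under the immunoglobulin-free scaling and -0.09 with estimated fragments, not called in either. The call was also lost without MHCII-lo replicate 1 (-0.15), MHCII-lo replicate 3 (-0.15), MHCII-hi replicate 2 (-0.17) or MHCII-hi replicate 3 (-0.15), with limma adjusted p from 0.062 to 0.0735. Srprb, which anchors the particle's receptor in the ER membrane, had 9.81, 9.88 and 9.43 FPKM in MHCII-hi against 8.56, 10.8 and 9.68 in MHCII-lo, and the groups overlapped (limma adjusted p = 0.916).

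Of the 9 translocon genes, 8 fell (6 under the immunoglobulin-free scaling). Ssr1 to Ssr4 encode the translocon-associated protein complex, which sits beside the channel and helps some signal peptides to insert. Ssr3 was the most abundant of the 9, with 92.4, 98.7 and 94.0 FPKM in MHCII-hi against 118, 122 and 123 in MHCII-lo. It changed by -0.34 (limma adjusted p = 0.000129). Ssr1 had the largest decrease, from 36.4, 36.3 and 35.4 in MHCII-lo to 24.8, 25.1 and 25.3 in MHCII-hi, a change of -0.51 (SE 0.03, limma adjusted p = 7.98e-06). Neither gene's groups overlapped. Ssr2 changed by -0.47 and Ssr4 by -0.21 (-0.03 and not called under the immunoglobulin-free scaling). The channel's own subunits also fell: Sec61a1, the pore, by 0.31, Sec61b by 0.37 and Sec61g by 0.49 on the log2 scale. Sec62, which serves proteins that enter after their synthesis, changed by -0.18 and likewise lost its call under that scaling (-0.01). Its partner Sec63, which brings the chaperone BiP to the channel, was level, at 12.6, 12.9 and 12.7 FPKM against 12.8, 12.5 and 13.3. Its change was -0.01 (limma adjusted p = 0.759), and it became 0.15 and was called higher under the immunoglobulin-free scaling. With estimated fragments without immunoglobulin genes it was 0.07 and not called.

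Signal peptidase, which cuts off the signal peptide, fell in 4 of its 5 genes (3 under the immunoglobulin-free scaling). Spcs3, an accessory subunit and the most abundant, had 58.3, 57.9 and 58.3 FPKM in MHCII-hi against 81.3, 81.5 and 78.7 in MHCII-lo (change -0.46, SE 0.02, limma adjusted p = 6.9e-06). Spcs2 fell most, from 57.4, 59.2 and 58.7 in MHCII-lo to 39.4, 40.6 and 38.3 in MHCII-hi, a change of -0.56. Groups were separate for both. Spcs1 changed by -0.26, and by -0.08 without a call under the immunoglobulin-free scaling. The catalytic subunit has alternative forms, Sec11a and Sec11c, and these differed. Sec11a went from 16.6, 15.7 and 15.8 FPKM in MHCII-lo to 10.6, 10.7 and 11.6 in MHCII-hi, a change of -0.51 (limma adjusted p = 0.000104). Sec11c had 18.4, 18.2 and 17.4 FPKM in MHCII-hi against 17.6, 17.4 and 17.2 in MHCII-lo, a change of 0.05 with overlapping groups (limma adjusted p = 0.249). The sign for Sec11c depends on the scaling: it was 0.22 and called higher without immunoglobulin genes, and -0.14 and called lower when scaled to summed FPKM.

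Oligosaccharyltransferase moves a preassembled sugar chain to asparagines, and 7 of its 8 genes fell (5 under the immunoglobulin-free scaling). Ostc, a subunit of the complex that works at the translocon, had 25.4, 25.4 and 24.9 FPKM in MHCII-hi against 40.5, 36.5 and 39.1 in MHCII-lo, the largest decrease here at -0.60 (SE 0.04, limma adjusted p = 3.31e-05). Rpn1, which presents some substrates to the enzyme, had 46.0, 45.0 and 47.7 FPKM against 69.1, 69.0 and 70.6, a change of -0.58 (limma adjusted p = 6.79e-06). For both, every MHCII-hi library lay below every MHCII-lo library. Ddost, a core subunit and the most abundant, had 107, 100 and 106 FPKM against 127, 132 and 133, a change of -0.32. The alternative catalytic subunits moved together, Stt3a by -0.37 and Stt3b by -0.36, and Rpn2 and Krtcap2 changed by -0.21 and -0.28. The last 2 were not called under the immunoglobulin-free scaling (-0.04 and -0.11). Dad1, a small core subunit, had 13.9, 12.3 and 12.7 FPKM in MHCII-hi against 13.0, 14.6 and 14.4 in MHCII-lo, and its groups overlapped (change -0.10, limma adjusted p = 0.199).

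Folding enzymes and lectin chaperones fell in 8 of 10 cases, and 1 rose (7 and 2 under the immunoglobulin-free scaling). Calr (calreticulin, chr8:84841850-84846934, minus strand, GRCm38), a lectin chaperone that holds immature glycoproteins, was the most abundant of all 58 at 431, 424 and 411 FPKM in MHCII-hi against 556, 544 and 550 in MHCII-lo. Its change was -0.38 (limma adjusted p = 1.3e-05). Canx (calnexin), its membrane-bound relative, fell most of the subgroup, with 86.6, 88.5 and 88.8 FPKM against 125, 122 and 126, a change of -0.49. Pdia3, the disulfide isomerase that works with both lectins, had 228, 226 and 224 FPKM against 319, 314 and 321, a change as large at -0.49 (SE 0.02, limma adjusted p = 1.27e-06). The MHCII-hi libraries of each of these genes lay below all MHCII-lo libraries. P4hb, the classical protein disulfide isomerase, stood at 288, 294 and 295 FPKM against 378, 389 and 391.8, a change of -0.40. Hsp90b1 (GRP94, the HSP90 of the ER) changed by -0.28, Pdia6 by -0.41 and Pdia4 by -0.13 (limma adjusted p = 0.0167). The call for Pdia4 was lost under the immunoglobulin-free scaling (0.05), with estimated fragments (-0.04) and without MHCII-lo replicate 2 (-0.11) or replicate 3 (-0.12), with limma adjusted p = 0.0564 and 0.0541.

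Txndc5 (chr13:38500079-38528824, minus strand, GRCm38), a thioredoxin-domain oxidoreductase, went the other way. It had 45.7, 44.4 and 46.2 FPKM in MHCII-hi against 23.6, 22.8 and 23.7 in MHCII-lo, so every MHCII-hi library lay far above every MHCII-lo library. The means were 45.4 ± 0.932 and 23.4 ± 0.495 (SD, n = 3 each), a 1.94-fold difference. The change was 0.93 on the log2(FPKM + 1) scale (SE 0.03, limma adjusted p = 7.32e-07). Fkbp11, a prolyl isomerase of the ER and also on the plasma cell list, was low and did not follow it. It had 2.77, 2.20 and 2.35 FPKM in MHCII-hi against 3.23, 3.50 and 3.63 in MHCII-lo, a change of -0.37 (limma adjusted p = 0.00578). It was the 1 plasma cell marker of 12 that fell. Fkbp2, another prolyl isomerase, had 18.8, 20.3 and 17.5 FPKM against 17.4, 18.5 and 19.4, with overlapping groups and a change of 0.03 (limma adjusted p = 0.693).

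The stress-response subgroup split into 4 genes that rose and 6 that fell. Herpud1 (chr8:94386438-94395377, plus strand, GRCm38), a membrane protein that gathers the ER degradation machinery, had 73.0, 70.9 and 74.2 FPKM in MHCII-hi against 28.4, 29.6 and 29.8 in MHCII-lo. No MHCII-lo library came near the MHCII-hi range. The means were 72.7 ± 1.67 and 29.3 ± 0.785 (SD, n = 3 each), a 2.48-fold difference and the largest change of the 58 at 1.28 (SE 0.03, limma adjusted p = 1.75e-07).

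Ddit3 (chr10:127290774-127296288, plus strand), which encodes CHOP, the transcription factor of the PERK arm tied to cell death, had 11.98, 13.5 and 11.6 FPKM in MHCII-hi against 7.68, 6.52 and 7.04 in MHCII-lo. The lowest MHCII-hi library exceeded the highest MHCII-lo library. The means were 1.75-fold apart, and the change was 0.73 on the log2(FPKM + 1) scale (SE 0.07, limma adjusted p = 0.000203). Dnajb9 (ERdj4, chr12:44205559-44210326, minus strand), a BiP cochaperone that restrains IRE1, had 39.0, 40.0 and 40.8 FPKM against 32.0, 30.8 and 31.3, a change of 0.34 (SE 0.03, limma adjusted p = 9.36e-05). Edem1, which sends misfolded glycoproteins to degradation, rose least, with 41.7, 40.1 and 41.8 FPKM against 36.7, 37.6 and 37.8. Its change was 0.14 (limma adjusted p = 0.00531), and it was -0.06 and not called with libraries scaled to summed FPKM.

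The other 6 genes of the subgroup fell in MHCII-hi, 4 of them under all 6 scalings. Sdf2l1 (chr16:17130138-17132383, minus strand), which keeps substrates soluble together with Dnajb11, had 49.3, 48.9 and 47.8 FPKM in MHCII-hi against 89.6, 86.4 and 82.4 in MHCII-lo. The groups were far apart: means of 48.6 ± 0.767 and 86.1 ± 3.59 (SD, n = 3 each), the lowest change of the 58 at -0.81 (SE 0.03, limma adjusted p = 3.21e-06). Manf, a secreted factor that binds BiP, had 29.0, 27.6 and 27.6 FPKM against 43.4, 41.4 and 42.2, a change of -0.58. Hyou1, which exchanges nucleotide on BiP, changed by -0.46, Dnajb11 by -0.42 and Creld2 by -0.26.

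Hspa5 (chr2:34771970-34777547, plus strand), which encodes BiP, the main HSP70 of the ER and the most abundant gene of the subgroup, had 309, 313 and 308 FPKM in MHCII-hi against 350, 346 and 352 in MHCII-lo. All MHCII-lo libraries were higher, and the change was -0.17 (SE 0.02, limma adjusted p = 0.000125). Under the immunoglobulin-free scaling, the difference for Hspa5 was 0.0045 and not called (limma adjusted p = 0.823). Hspa5 was called lower with estimated fragments without immunoglobulin genes (-0.08), with summed FPKM (-0.37) and under quantile normalization (-0.63). Creld2 was also not called under the immunoglobulin-free scaling (-0.08), but was called lower with estimated fragments without those genes (-0.17).

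**Figure D3:**
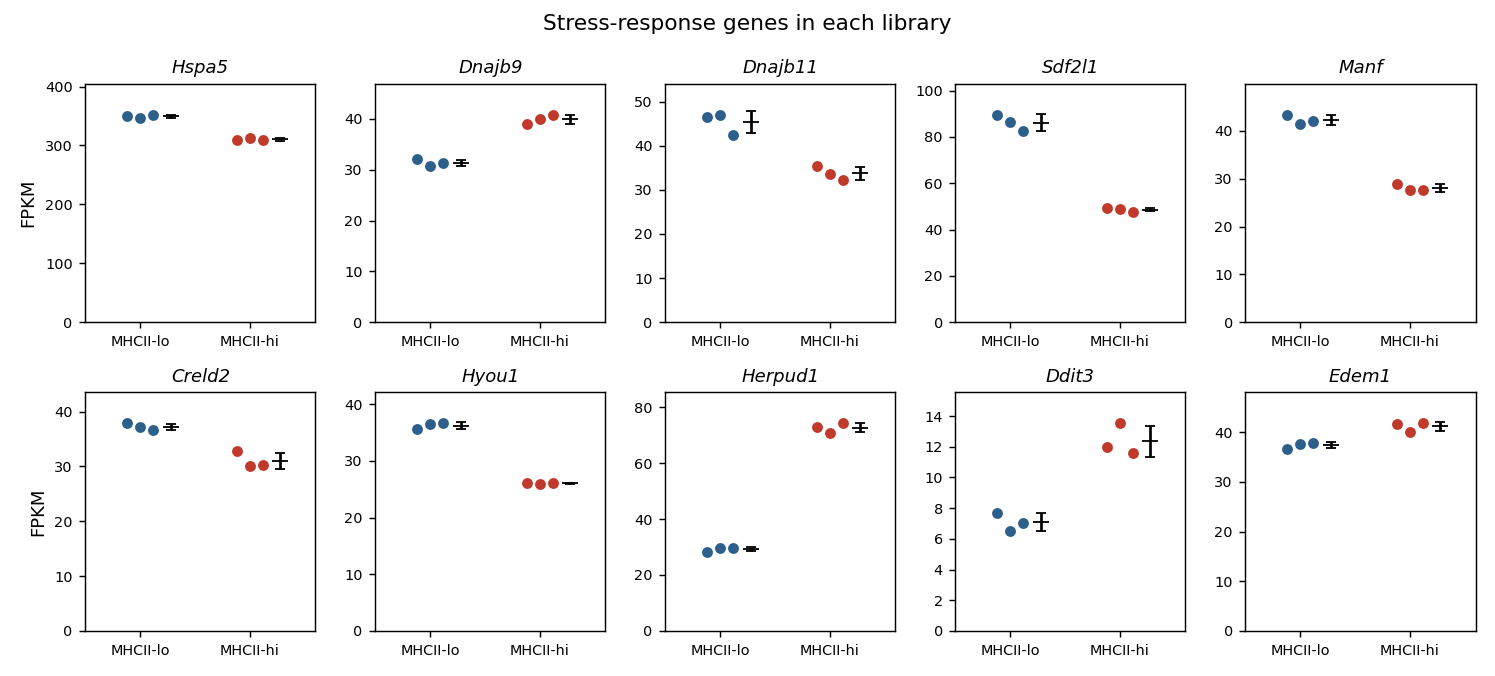
FPKM of each stress-response gene in the 3 MHCII-lo and 3 MHCII-hi libraries (points), with the mean and SD beside them and each vertical axis starting at 0. Herpud1, Ddit3, Dnajb9 and Edem1 are higher in MHCII-hi, and the other 6 genes are lower.

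Promoter sequence was available for 49 of the 58 genes (RefSeq, GRCm38.p6, 250 bases before to 50 after each start), and it was searched on both strands for motifs known from this response. These were the ER stress element ERSE (CCAAT, any 9 bases, CCACG), ERSE-II (ATTGG, any base, CCACG), the XBP1-type element UPRE (TGACGTGG) and a composite C/EBP and ATF letter string (TTGCATCA). Herpud1, the gene with the largest increase, is shown first because its window holds both an ERSE-II match and the composite. The 250 bases before its start, at chr8:94386179-94386428 on the plus strand, have the composite and then ERSE-II in capitals.
Herpud1: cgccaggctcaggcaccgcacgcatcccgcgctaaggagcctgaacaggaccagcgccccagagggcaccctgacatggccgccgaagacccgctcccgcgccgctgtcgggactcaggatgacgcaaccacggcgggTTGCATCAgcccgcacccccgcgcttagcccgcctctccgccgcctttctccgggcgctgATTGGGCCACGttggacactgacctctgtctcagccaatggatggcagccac

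In Herpud1 the composite lies 112 to 105 bases and ERSE-II 52 to 42 bases before the start. The composite was found in 279 of 27025 genes (1.03%), and of the 49 only in Herpud1. ERSE-II was found in 12 of the 27025 (0.0444%) and in 3 of the 49, Herpud1, Dnajb11 and Krtcap2, with the match after the start in the last 2. Dnajb11 and Krtcap2 fell.

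ERSE was found in 37 of all genes (0.137%) and in 6 of the 49 (12.2%): Hspa5, Calr, Canx, Creld2, Hsp90b1 and Pdia6. All 6 were lower in MHCII-hi, Hspa5 and Creld2 only under some scalings. Stretches of 43 bases are shown with the ERSE match in capitals. The search itself fixed the spacing and the outer letters, so only the inner bases could differ. A stretch that starts its capitals with CGTGG holds the element on the opposite strand. They come from chr2:34772013-34772055 (plus strand) for Hspa5, chr8:84847063-84847105 (minus) for Calr, chr11:50325788-50325830 (minus) for Canx, chr15:88819508-88819550 (plus) for Creld2, chr10:86705521-86705563 (minus) for Hsp90b1 and chr12:17266479-17266521 (plus) for Pdia6. Hsp90b1 holds a second match that is not shown.
Hspa5: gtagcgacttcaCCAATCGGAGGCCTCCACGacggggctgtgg
Calr: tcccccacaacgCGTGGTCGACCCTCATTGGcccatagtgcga
Canx: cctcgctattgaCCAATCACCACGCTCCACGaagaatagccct
Creld2: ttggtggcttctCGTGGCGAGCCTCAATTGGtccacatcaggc
Hsp90b1: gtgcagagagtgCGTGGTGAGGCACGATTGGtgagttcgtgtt
Pdia6: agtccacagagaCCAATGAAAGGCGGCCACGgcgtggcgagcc

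UPRE was found in 193 of all genes (0.714%) and in 3 of the 49 (6.12%), of which Sec23a has it after the start. The other two are shown because they moved apart, Txndc5 up and the COPII adaptor Sec24d down, with the match in capitals, at chr13:38528033-38528064 (minus strand, before a start that lies inside the gene) and chr3:123267458-123267489 (plus strand).
Txndc5: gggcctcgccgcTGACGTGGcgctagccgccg
Sec24d: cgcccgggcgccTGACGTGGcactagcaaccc

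These matches are descriptions of letters, and binding was not measured. No entry was found for Hyou1, Manf, Ostc, Sec11c, Sec61a1, Spcs3, Srp19, Srp68 and Ssr2. Genes with a match to some motif of the 4 numbered 12 of 49.

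COPII genes moved in both directions, with 7 lower, 2 higher and 1 not called (5, 3 and 2 under the immunoglobulin-free scaling). The GTPase Sar1 starts the coat, Sec23 and Sec24 form its inner layer and choose cargo, and Sec13 and Sec31 form the outer cage. Sar1b (chr11:51763687-51791925, plus strand), the form needed to export large lipoproteins, fell most. It had 29.0, 30.8 and 27.1 FPKM in MHCII-hi against 47.6, 49.5 and 48.6 in MHCII-lo, and no libraries of the groups overlapped (change -0.73, SE 0.05, limma adjusted p = 2.49e-05). Its paralog Sar1a had 22.8, 20.6 and 21.2 FPKM against 24.3, 24.1 and 24.8, a smaller change of -0.17 (limma adjusted p = 0.0118) that was -0.00 and not called under the immunoglobulin-free scaling.

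The 4 Sec24 paralogs bind partly different cargo, and they changed differently. Sec24a (chr11:51692264-51763634, minus strand) had 3.59, 3.69 and 3.23 FPKM in MHCII-hi against 2.44, 2.51 and 2.12 in MHCII-lo, a 1.49-fold difference and a change of 0.42 (SE 0.07, limma adjusted p = 0.00224). Sec24d had 6.68, 6.61 and 6.85 FPKM against 8.07, 8.27 and 8.73, a change of -0.28 (limma adjusted p = 0.00136). The groups were separate for both genes, on opposite sides. Sec24b, at 11.0, 11.2 and 10.1 FPKM against 9.25, 9.41 and 9.39, rose by 0.18 (limma adjusted p = 0.0129), but not with libraries scaled to summed FPKM (0.00). Sec24c, the most abundant paralog, had 21.3, 20.4 and 21.4 FPKM against 21.5, 21.1 and 22.3, with overlapping groups and a change of -0.04 (limma adjusted p = 0.368), which was 0.13 and called higher under the immunoglobulin-free scaling.

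Sec24a made up 7.78 to 8.79% of the summed Sec24 FPKM in MHCII-hi and 4.98 to 6.07% in MHCII-lo, and Sec24d 15.7 to 16.5% and 19.6 to 20.5%. The other coat genes fell: Sec13 by 0.46, Sec23b by 0.43 and Sec23a by 0.33 on the log2 scale. Sec31a changed by -0.09 (limma adjusted p = 0.0398). The Sec31a call was kept only with summed FPKM among the 5 other scalings, and was lost when any library other than MHCII-hi replicate 1 was left out, with changes of -0.10 to -0.08 and limma adjusted p from 0.0732 to 0.106.

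A ratio between genes of the same library does not change when the library is multiplied by a scaling factor, although quantile normalization changes it, so 13 ratios between partners are given. In 7 of them the genes were separated in opposite directions, so their ratio had to be separate too and is a description with no test. The other 6 were compared with an exact two-sided permutation test, whose smallest p for 3 against 3 libraries is 0.1. Herpud1 over Hspa5 was 0.234 ± 0.00719 in MHCII-hi, against 0.0837 ± 0.00241 for MHCII-lo (SD), 2.80-fold apart, and Ddit3 over Hspa5 was 0.0399 against 0.0202. Both follow from the opposite changes of the genes. Sdf2l1 and Hspa5 both fell, and their ratio was 0.157 against 0.246, lower in every MHCII-hi library than in any MHCII-lo library (exact permutation p = 0.1).

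Txndc5 over P4hb was 0.156 against 0.0605, a 2.57-fold difference, and Sec24a over Sec24d was 0.522 ± 0.0453 against 0.283 ± 0.0347, both again from opposite changes. The signal peptidase ratio Sec11c over Sec11a was 1.65 ± 0.129 in MHCII-hi, against 1.09 ± 0.0211 for MHCII-lo, so Sec11c exceeded Sec11a more in MHCII-hi. Sar1b over Sar1a was 1.35 ± 0.128 against 1.99 ± 0.0574, and Sec24c over Sec24d was 3.13 against 2.59. Of the 6 tested ratios, these 3 and Sdf2l1 over Hspa5 did not overlap between groups (exact permutation p = 0.1 for each, 0.15 after Benjamini-Hochberg adjustment over the 6), so none passed 0.05. The other two overlapped. Stt3b over Stt3a was 1.79 ± 0.0288 against 1.77 ± 0.00843 (exact permutation p = 0.4, adjusted 0.4), and Sec23b over Sec23a was 1.69 ± 0.0514 against 1.80 ± 0.0824 (exact permutation p = 0.2, adjusted 0.24).

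**Figure D4:**
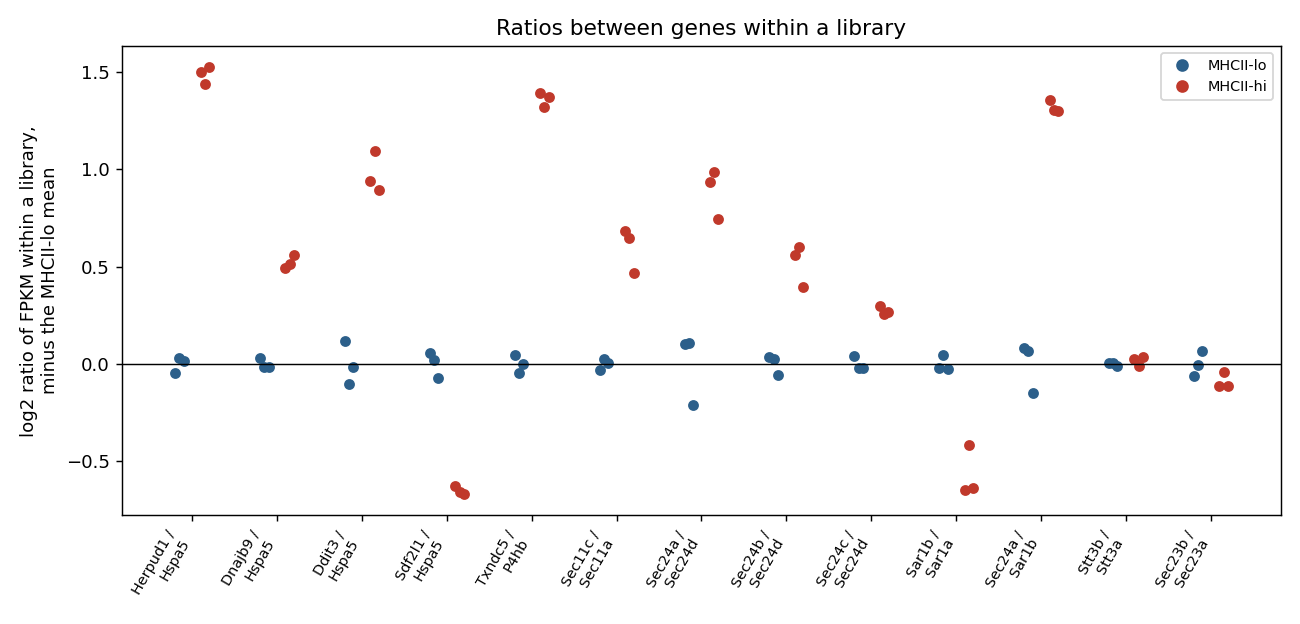
Log2 ratio of FPKM between gene pairs within each library, minus the MHCII-lo mean of that ratio (points, 3 libraries a group, zero line at the MHCII-lo mean). Herpud1 over Hspa5 (1.49), Txndc5 over P4hb (1.36) and Sec24a over Sar1b (1.32) lie highest, and Stt3b over Stt3a stays near 0.

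Of all tested genes, 25.5% were higher and 33.1% lower. Sensors, transcription factors and related genes of the unfolded protein response, outside the 58, were 10 higher and 5 lower of 18 tested. Under the immunoglobulin-free scaling they were 12 higher and 4 lower (40.5% and 17.6% of all tested genes), and with summed FPKM 6 higher and 8 lower (15.3% and 52.2%). Their median change was 0.23. The sensor Ern1 stood at 12.5 ± 0.203 FPKM in MHCII-hi, against 8.80 ± 0.274 for MHCII-lo (SD, n = 3 each, change 0.46, limma adjusted p = 6.54e-05), and it was called higher under all 6 scalings. Eif2ak3 changed by 0.29, Atf6 by 0.25 and Xbp1, the IRE1 target that drives secretory expansion, by 0.27. None of these 3 was called when libraries were scaled to summed FPKM. Atf6b, the relative of Atf6, changed by -0.31 and was called lower under all 6 scalings. Atf4 changed by 0.30, and by 0.00 under quantile normalization.

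Ppp1r15a, which restores translation after PERK signalling, rose most of these genes on the log2(FPKM + 1) scale, followed by Bhlha15 and Creb3l2. It stood at 71.6 ± 1.32 against 32.6 ± 0.828 FPKM, a change of 1.11 (limma adjusted p = 2.64e-07). Bhlha15, a secretory-cell transcription factor, changed by 0.93 and Creb3l2 by 0.70. The order depends on the scale, which understates changes of low genes. By ratio of mean FPKM, Bhlha15 (3.80-fold, 1.82 against 0.48 FPKM) and Chac1 (2.56-fold) rose more than Ppp1r15a (2.19-fold). Asns, the asparagine synthetase that ATF4 activates, changed by -0.59, Eif2s1, the translation factor that PERK phosphorylates, by -0.56 and Dnajc3, a BiP cochaperone, by -0.39.

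ER-associated degradation genes rose in 7 of 20 cases and fell in 5, with a median of 0.01, where 25.5% and 33.1% of all tested genes did. Under the immunoglobulin-free scaling 11 rose and 2 fell, where 40.5% and 17.6% of all tested genes did, and with summed FPKM 4 rose and 12 fell, where 15.3% and 52.2% did. Derl3, a channel component of this machinery that is also on the plasma cell list, stood at 8.75 ± 0.811 FPKM in MHCII-hi, against 0.717 ± 0.155 for MHCII-lo (change 2.51, limma adjusted p = 1.52e-06). Edem3 changed by 0.51 and the ubiquitin ligase Syvn1 by 0.45. Selenos, Ube2g2 and Derl2 fell, by 0.41, 0.34 and 0.19 on the log2 scale. Derl2 was not called under the immunoglobulin-free scaling.

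**Figure D5:**
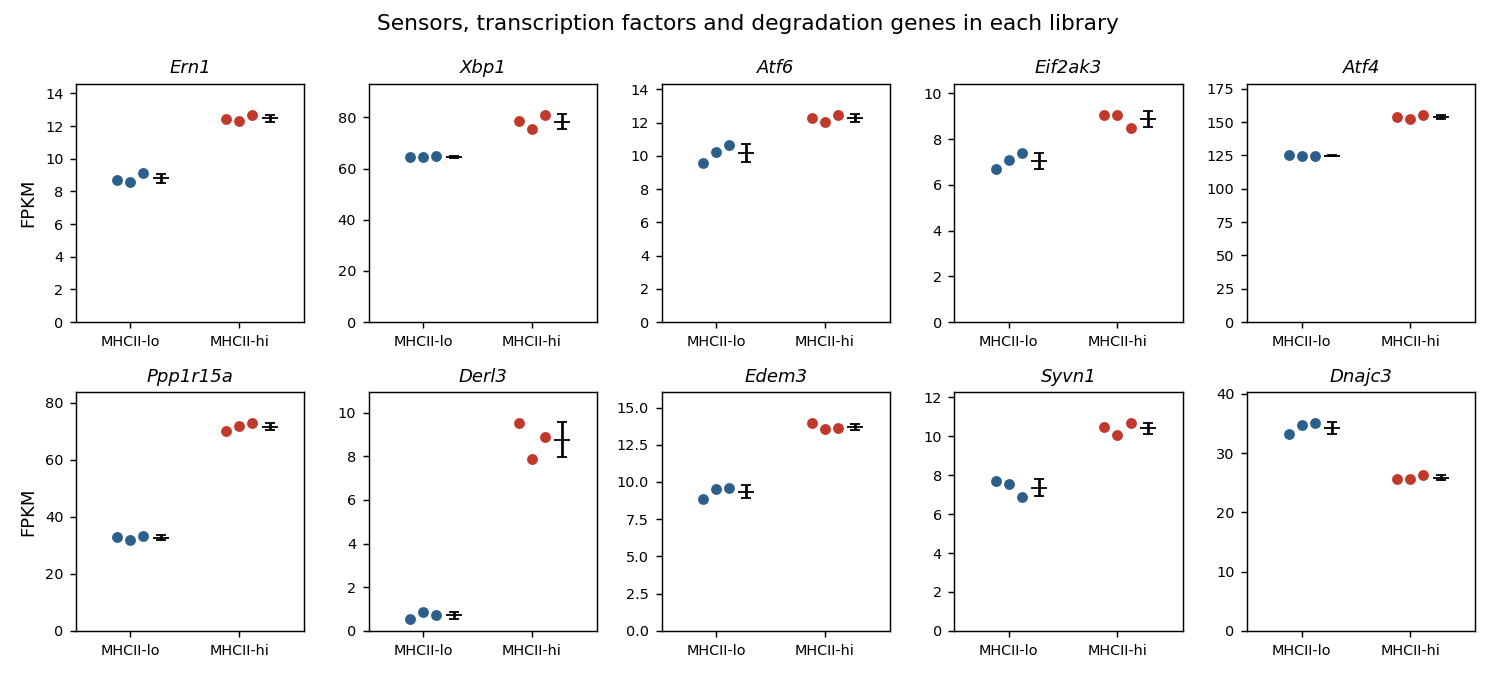
FPKM of 10 genes of the unfolded protein response and ER-associated degradation in the 3 MHCII-lo and 3 MHCII-hi libraries (points). The mean and SD lie beside the points, and each vertical axis starts at 0. Derl3 and Ppp1r15a are far higher in MHCII-hi, and Dnajc3 is lower.

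In the 4 remaining lists, how many genes fell depended on the scaling. Other targeting and translocation genes fell in 12 of 17 cases and rose in 2 (7 and 3 under the immunoglobulin-free scaling), with a median of -0.25, where 33.1% and 25.5% of all tested genes fell and rose (17.6% and 40.5%). The translocation factor Tram2 changed by 1.12, while Asna1, which delivers tail-anchored proteins, changed by -0.66 and Emc4 of the ER membrane protein complex by -0.53. The channel paralog Sec61a2 changed by 0.22 (limma adjusted p = 0.0328). Its call was lost when any library other than MHCII-hi replicate 1 was left out, with changes of 0.19 to 0.23 and limma adjusted p from 0.0642 to 0.0963. Srp54a, at -0.67, has near-identical copies, so its reads could be split between them. Other glycosylation genes fell in 14 of 23 cases and rose in 1, Man1b1 (0.32), against 6 and 3 under the immunoglobulin-free scaling, with Mogs, the first glucosidase, at -0.52 and Mlec at -0.39.

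Other folding genes fell in 13 of 22 cases and rose in 4 (8 and 6 under the immunoglobulin-free scaling). Prdx4, a peroxidase that helps form disulfides, changed by 0.50 and the BiP exchange factor Sil1 by 0.36, against -0.84 for the sulfhydryl oxidase Qsox1 and -0.62 for Selenof. ER to Golgi traffic genes fell in 21 of 29 cases and rose in 1, Stx5a (0.40), against 16 and 7 under the immunoglobulin-free scaling, with the fusion protein Bet1 at -0.61, the retrieval receptor Kdelr2 at -0.60 and the coat subunit Copb2 at -0.49. Medians were -0.22 for other folding, -0.20 for other glycosylation and -0.33 for traffic, against -0.04 for all tested genes. Under the immunoglobulin-free scaling they were -0.05, -0.05 and -0.16, with -0.07 for other targeting, against 0.11.

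Within the 58, replicates were tight: the SD was a median of 2.54% of the mean for MHCII-hi and 2.31% for MHCII-lo, with the widest at 12.1% (Fkbp11, MHCII-hi) and 11.4% (Srprb, MHCII-lo). Across the 58 genes, the change correlated weakly with mean level (Spearman's rho -0.27, n = 58 genes sharing the same 6 libraries) and with exon length (0.16, against 0.13 over 11875 tested genes). Genes are not independent replicates, and these are descriptions.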

How the data were processed

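RNA from sorted bone marrow cells was extracted with RNeasy Micro columns and libraries were made with the TruSeq Stranded mRNA kit, per the labels' protocols. The tools fastp, HISAT2 and StringTie and the build GRCm38 (mm10) are named, without roles, per the submitters' processing notes. Neither tool versions nor the authors' annotation could be read from them (not given in the sources used here). For each library the authors deposited a table with a value per gene. No header names a unit. The deposited values were taken to be FPKM made by the authors, because they are not whole and their smallest steps depend on gene length. No read counts were used, and the fragments per library were estimated from those steps.

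The tables held 30803 rows, of which 70 that repeated a symbol were dropped, keeping the row with the highest mean. Genes averaging 1 FPKM or more (12110) were tested with limma 3.58.1 in R 4.3.3 on log2(FPKM + 1), a scale that understates changes of low genes. The fit used an intensity trend without covariates. Its two-sided p-values were adjusted over all 12110 genes by Benjamini-Hochberg and called under 0.05. It was tested on simulated data. All 58 genes passed the minimum. Errors are SD over 3 libraries a group.

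Alternatives were 5 other scalings (summed FPKM, summed FPKM without 314 immunoglobulin symbols, estimated fragments without them, upper quartile and quantile), a pseudocount of 0.1, no minimum or 5 FPKM, limma without trend or with robust moderation, summed repeated rows, a replicate block and each library left out. Scaling to summed FPKM and to estimated fragments was chosen after seeing the data. Same-numbered libraries did not deviate together (r = -0.09, -0.00 and -0.03), so replicate numbers were not taken as pairs.

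The 58 genes and the pathway and marker lists were chosen with earlier results of these data known. By rule, every library value is given for the most changed, the most abundant and the contrary genes of each subgroup, and from each other list up to 3 called genes a direction plus Xbp1, Ern1, Atf6, Eif2ak3 and Atf4. Gene coordinates are from GENCODE and promoters from RefSeq, both on GRCm38. Protein sequences were not analysed here.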

Additional observations from a re-analysis of the deposited data

How the results depend on the processing

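Of 58 genes, 38 kept direction and call under all of the 18 alternatives in which they were tested, and 20 changed under some. Fkbp11 and Sec24a, among the 38, were not tested with a minimum of 5 FPKM. Scaling moved most. Without immunoglobulin genes, 11 of the 58 rose, with 1 translocon, 1 signal peptidase and 2 folding genes among them, the median was -0.16, and 69.7% of all calls were higher, against 43.5%. With estimated fragments without immunoglobulin genes, 1 signal peptidase gene rose, the median was -0.24 and 56.6% of calls were higher. With summed FPKM, 1 COPII gene rose, the median was -0.52 and 22.7% of calls were higher, and with quantile normalization the median was -0.41. With a minimum of 5 FPKM, 1 COPII gene rose, because Sec24a was not tested. The median of all tested genes shifted by 0.15 with summed FPKM without immunoglobulin genes and by -0.17 with summed FPKM. With estimated fragments without immunoglobulin genes it shifted by 0.07. The scalings set these differences by construction.

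Signs turned without immunoglobulin genes for Sec63 (0.15), Dad1 (0.067), Pdia4 (0.048), Hspa5 (0.0045), Sec24c (0.13) and Sec31a (0.073). With estimated fragments they turned for Sec63 (0.070) and Sec24c (0.047), with summed FPKM for Srprb (-0.17), Sec11c (-0.14), Fkbp2 (-0.16) and Edem1 (-0.060), and with quantile normalization for Srprb (-0.015) and Sec24c (0.0031). For genes near 0, leaving out 1 library gave -0.066 to 0.083 for Srprb, -0.034 to 0.0094 for Sec63 and -0.021 to 0.081 for Fkbp2. Leaving out each library left 7 genes higher each time and 42 to 45 lower, with a median of -0.34 to -0.31.

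With the replicate block, 7 genes rose and 44 fell, and over all tested genes 2856 rose and 3782 fell, against 3084 and 4009. It ended the call for Sec31a (-0.09) and, outside the 58, Sec61a2 (0.22), and changed no other named call. The labels share only a number. The pairing check found no shared deviation, but it cannot show that same-numbered libraries came from different sorts or mice. Estimated depth limits low genes most: Fkbp11, the lowest of the 58, rests on at least 121 estimated fragments a library. Outside the 58, Chac1, Derl3 and Bhlha15 rest on at least 19.5, 25.0 and 25.8.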

Other observations

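Sec24a and Sar1b, the COPII genes that moved furthest apart, are neighbours. In the GENCODE annotation on GRCm38 they lie head to head on chromosome 11, with 52 bases between them (chr11:51763635-51763686). This was noticed after their values were seen. Sec24a changed by 0.42 and Sar1b by -0.73, and the ratio of Sec24a to Sar1b was 0.121 ± 0.00262 in MHCII-hi, against 0.0485 ± 0.00425 for MHCII-lo (SD, n = 3 each), 2.49-fold apart. RefSeq places the start of Sec24a elsewhere, so no shared window was read.

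The ERSE letters were also found in 5 of 112 other pathway genes with a promoter entry. Derl3, Dnajc3, Ero1b and Syvn1 have a site of their own, and the match of Alg12 is the same site as that of its divergent neighbour Creld2. Derl3 and Syvn1 rose and Dnajc3 fell, so genes with this match changed in both directions.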
